A study of Mus musculus with 12 samples.

Results

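A group of 9 genes that carry the type I interferon signal from the cell surface to the nucleus were followed in irradiated mouse cells. They are both chains of the type I interferon receptor (Ifnar1, Ifnar2), the receptor's kinases (Jak1, Tyk2), the signal transducer Stat2, and 4 interferon regulatory factors (Irf1, Irf3, Irf7, Irf9). They were chosen by gene symbol among the 22036 known genes of the deposited table, which lists 33625 genes in all, and each of the 9 symbols was found there. RNA was sequenced from wild-type MODE-K cells, an established line labelled as epithelium of the mouse small intestine, with and without irradiation by a cobalt gamma-ray source. The groups, of 3 libraries each, were cells taken 48 h after 12 Gy (12Gy_48h), cells taken 24 h after 12 Gy (12Gy_24h), cells taken 48 h after 4 Gy (4Gy_48h), and unirradiated cells taken at 0 h (control). The control had no later time point, so an effect of radiation and an effect of time in culture cannot be told apart in any comparison with control. The same holds between the times after 12 Gy, as no unirradiated cells were taken at 24 h or 48 h. All groups came from 1 cell line, and the labels do not say whether the 3 libraries of a group were grown separately, so p-values measure the spread between libraries, which may be technical.

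In mammalian cells, type I interferon binds the receptor made of IFNAR1 and IFNAR2, and the kinases TYK2 and JAK1, which sit on those chains, then phosphorylate STAT proteins. STAT2 joins IRF9 in a complex that binds the interferon-stimulated response element (ISRE) in the promoters of antiviral genes. IRF3 and IRF7 act on the other side of the loop: once phosphorylated downstream of sensors of foreign or misplaced nucleic acid, they switch on interferon genes. IRF7, STAT2, IRF9 and IRF1 are themselves known products of interferon-stimulated genes, whereas IRF3 is known as a factor present before any signal.

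Library totals ran from 3616416 to 4831641 assigned reads, and a single library held between 30 and 1170 reads of any of the 9 genes. All 9 passed the filter on low counts, which kept 15086 genes. Levels below are CPM, counts scaled to the library's total, after TMM scaling, which removes differences in library size but is not per gene length, so levels are compared between groups and not between genes. Unannotated loci took a lower share of reads in irradiated cells, on average 14.7% at 12Gy_48h, 11.9% at 12Gy_24h and 15.8% at 4Gy_48h against 21.0% in control. Beside that shift, the median known gene stood 0.20 (12Gy_48h), 0.23 (12Gy_24h) and 0.14 (4Gy_48h) above control on the log2 scale. Each comparison with control was therefore also fitted to known genes alone, where that median is near 0. Calls from that fit are counted for each comparison, and its values are given for part of the gene results. Markers of the labelled cell type gave a mixed picture. Of 10 epithelial markers, Krt18 and Krt7 passed the filter (353 and 131 reads over all 12 libraries), whereas Epcam and Cdh1 had 2 reads each and Cldn7 and Ocln had 0. Of 10 markers of intestinal lineages, Krt20 passed (423 reads), Cdx2 had 51 reads, and Cdx1, Lgr5, Muc2 and Alpi had 0. Of 9 fibroblast and mesenchymal markers 4 passed, among them Vim (63111 reads) and Col1a2 (11434), while Col3a1, Acta2 and Thy1 had 8, 2 and 1 reads. The summed level of these 9 ran from 1473 to 2010 CPM at 12Gy_48h, from 2277 to 2723 CPM at 12Gy_24h and from 1241 to 1724 CPM at 4Gy_48h, against 691 to 1119 CPM in control, and its part in the results was not tested. Markers that define immune cells (Ptprc, Cd3e, Ms4a1, Adgre1, Siglech, Clec9a) had 0 reads in every library.

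Irf7 and Stat2 had the largest changes of the 9 genes over control at 48 h after either dose, and between the times after 12 Gy. Each stood higher than control 48 h after either dose and lower than control 24 h after 12 Gy. Of 19 alternative fits, described below, the fall at 24 h was called in 10 for Stat2 and 17 for Irf7. The Stat2 rise at 4Gy_48h was called in 18. Tyk2, Irf1 and Irf9 were higher at 12Gy_48h as well, whereas no call was made for either receptor chain in any comparison. The promoters of 4 of the genes are shown first: Stat2 and Irf1 because each holds a match to a searched motif and each rose at 12Gy_48h, Irf7 because it rose most but holds no match, and Irf3 as a gene that did not pass at 48 h.

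All 9 genes were matched by symbol to RefSeq promoter windows of build GRCm38.p6, which run from 250 bases before to 50 bases after a gene's start, 300 bases in all, with 11 windows for the 9 genes. RefSeq starts can differ from the gene bounds given below. Each was searched on both strands for the ISRE core, which is GAAA, any 2 bases and GAAA again, and for the gamma-activated site (GAS) TTCNNNGAA, the element bound by STAT dimers; the GAS reads alike on both strands. The windows are written 5′ to 3′ on the gene's own strand, with the matched letters in capitals. They are Stat2 at chr10:128270248-128270547 (plus strand), Irf1 at chr11:53769764-53770063 (plus strand), Irf7 at chr7:141266375-141266674 (minus strand) and Irf3 at chr7:44997398-44997697 (plus strand).
Stat2: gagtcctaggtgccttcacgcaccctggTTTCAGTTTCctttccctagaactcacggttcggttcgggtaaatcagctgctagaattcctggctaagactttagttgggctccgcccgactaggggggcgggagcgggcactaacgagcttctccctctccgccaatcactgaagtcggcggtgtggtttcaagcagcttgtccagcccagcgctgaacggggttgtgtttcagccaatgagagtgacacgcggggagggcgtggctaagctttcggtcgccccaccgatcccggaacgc
Irf1: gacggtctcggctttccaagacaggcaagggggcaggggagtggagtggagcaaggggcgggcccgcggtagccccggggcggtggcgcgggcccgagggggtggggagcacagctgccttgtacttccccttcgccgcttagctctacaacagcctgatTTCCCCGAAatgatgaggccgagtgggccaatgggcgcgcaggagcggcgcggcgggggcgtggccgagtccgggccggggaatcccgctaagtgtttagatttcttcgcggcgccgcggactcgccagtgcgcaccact
Irf7: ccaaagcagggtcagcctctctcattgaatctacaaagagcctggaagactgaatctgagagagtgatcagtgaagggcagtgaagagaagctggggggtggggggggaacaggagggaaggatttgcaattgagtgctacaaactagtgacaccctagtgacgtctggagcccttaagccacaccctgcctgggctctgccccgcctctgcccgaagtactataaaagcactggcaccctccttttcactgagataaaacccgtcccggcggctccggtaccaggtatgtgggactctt
Irf3: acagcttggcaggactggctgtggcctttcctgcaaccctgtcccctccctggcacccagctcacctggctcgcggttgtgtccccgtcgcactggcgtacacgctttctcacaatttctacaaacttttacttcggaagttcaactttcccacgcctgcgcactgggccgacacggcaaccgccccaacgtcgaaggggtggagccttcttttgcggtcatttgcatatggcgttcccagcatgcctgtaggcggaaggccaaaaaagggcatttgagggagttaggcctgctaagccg
The Stat2 window held an ISRE on the minus strand, written TTTCAGTTTC on the gene's strand, whose first base lies 222 bases before the start. Irf1 held the GAS TTCCCCGAA from 90 bases before its start. Ifnar1 and Ifnar2, whose windows are not printed, held TTCACGGAA from 5 bases and TTCCTGGAA from 214 bases before their starts. No match to either motif was found in the windows of Jak1, Tyk2, Irf3, Irf7 and Irf9. Over all 32851 RefSeq promoter windows, the ISRE letters occurred in 3.44% and the GAS letters in 8.3%. A match is a run of letters and not a measured binding site.

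**Figure D1:**
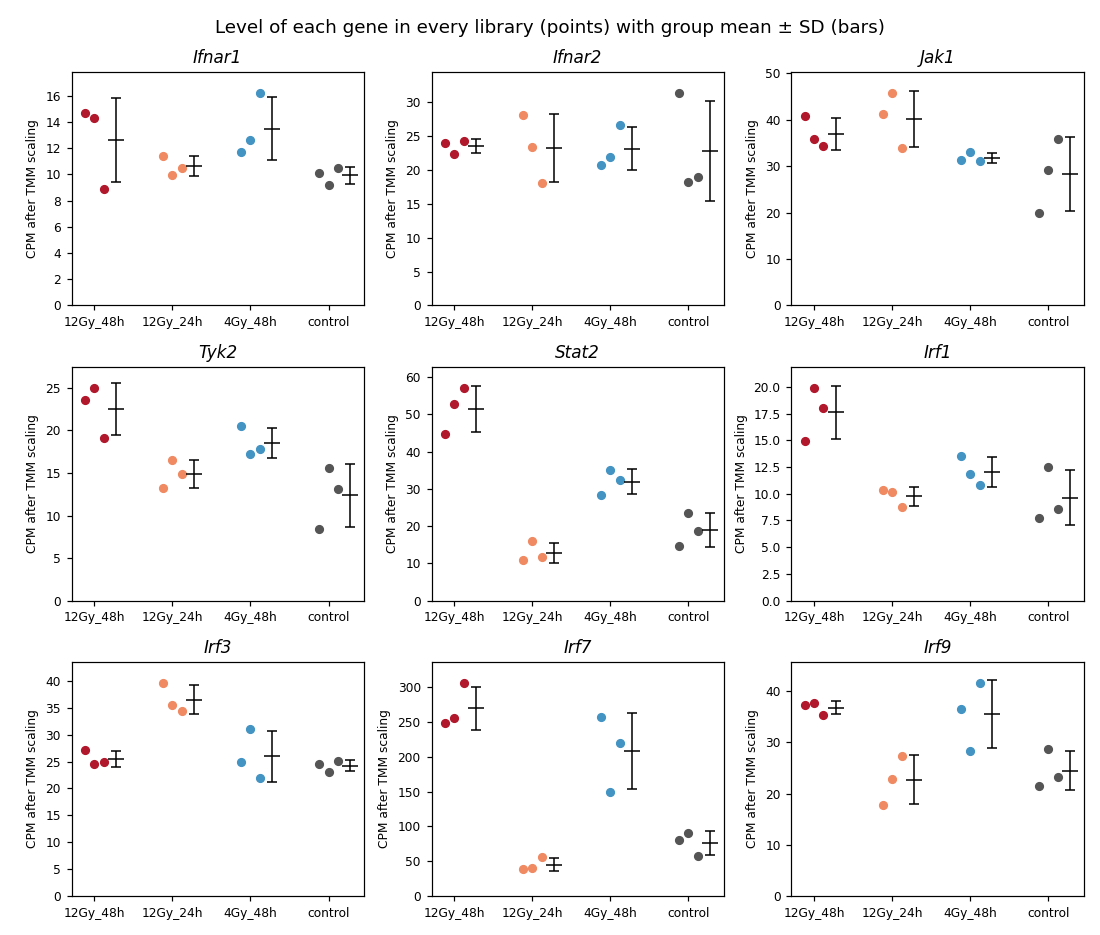
Level of each of the 9 genes (CPM after TMM scaling, linear axis from 0) in every library. Points are the 3 libraries of a group, in replicate order, and bars are the group mean ± SD. Irf7 ran from 249 to 306 CPM at 12Gy_48h and from 38.5 to 56.0 CPM at 12Gy_24h, on either side of control at 56.8 to 90.7 CPM.

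The receptor chains were followed to see whether the cell's capacity to receive the signal changed. Ifnar1 (chromosome 16, 91485238 to 91507441, plus strand, GRCm38), which binds TYK2, had 14.7, 14.3 and 8.89 CPM at 12Gy_48h, 11.4, 9.92 and 10.5 CPM at 12Gy_24h, and 11.7, 12.6 and 16.2 CPM at 4Gy_48h, against 10.1, 9.22 and 10.5 CPM in control, in replicate order here and below. Its 4Gy_48h values all lay above control, while the other irradiated groups overlapped control. Its log2 fold change over control was 0.34 ± 0.21 (SE of the fit, n = 3 per group) at 12Gy_48h, 0.10 ± 0.22 at 12Gy_24h and 0.44 ± 0.21 at 4Gy_48h. None passed edgeR's quasi-likelihood test with Benjamini-Hochberg adjustment over all tested genes (adjusted p 0.229, 0.745 and 0.168 in that order). Fitted with known genes alone, the values were 0.16, -0.14 and 0.29 in the same order, and none passed.

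Ifnar2 (chromosome 16, 91372783 to 91405589, plus strand), which binds JAK1, averaged 23.6 ± 1.03 CPM at 12Gy_48h, 23.2 ± 5.03 CPM at 12Gy_24h, 23.2 ± 3.14 CPM at 4Gy_48h and 22.9 ± 7.39 CPM in control (SD, n = 3 each). The highest group mean was 1.03 times the lowest, and all neighbouring groups overlapped. Its log2 fold change at 12Gy_48h over control was 0.03, with a 95% interval of -0.40 to 0.47 (edgeR adjusted p 0.916), so a change of up to that size is not excluded by these libraries. In the fit to known genes alone the value was -0.15, and the sign of this gene's small differences depended on the scaling in each of the 5 comparisons.

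Tyk2 (chromosome 9, 21104068 to 21131243, minus strand) had 23.6, 25.0 and 19.1 CPM at 12Gy_48h, 13.3, 16.5 and 14.9 CPM at 12Gy_24h, and 20.5, 17.3 and 17.8 CPM at 4Gy_48h, against 8.38, 15.6 and 13.1 CPM in control. Every library taken at 48 h lay above every control library, and the 24 h libraries overlapped control. At 12Gy_48h Tyk2 rose over control by 0.88 ± 0.20 on the log2 scale (edgeR adjusted p 0.00348), and by 0.69 among known genes alone (adjusted p 0.0287). At 4Gy_48h the difference was 0.59 ± 0.21 and did not pass (edgeR adjusted p 0.0565), nor did the 0.45 among known genes alone (adjusted p 0.313). The difference passed without control replicate 2 (0.0212) and with no filter on low counts (0.0223). At 12Gy_24h it was 0.28 ± 0.21 (edgeR adjusted p 0.301).

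Jak1 (chromosome 4, 101152367 to 101265282, minus strand) had 40.8, 35.9 and 34.2 CPM at 12Gy_48h, 41.1, 45.7 and 33.8 CPM at 12Gy_24h, and 31.4, 33.1 and 31.0 CPM at 4Gy_48h, against 19.98, 29.2 and 35.9 CPM in control. Control replicate 1 was the lowest of the 12 libraries, and every irradiated group overlapped control. Jak1 rose over control at 12Gy_24h by 0.52 ± 0.18 on the log2 scale (edgeR adjusted p 0.0260). That call was lost among known genes alone (0.28, adjusted p 0.318), without control replicate 1 (0.32, adjusted p 0.105), without 12Gy_24h replicate 1 (0.52, adjusted p 0.0509) and with only the 2 groups in the fit (adjusted p 0.0537). At 12Gy_48h the difference of 0.39 ± 0.18 did not pass (edgeR adjusted p 0.105), nor did the 0.20 among known genes alone (adjusted p 0.493). The difference passed without control replicate 3 (0.0228) and with no filter on low counts (0.0444). At 4Gy_48h it was 0.18 ± 0.18 (edgeR adjusted p 0.557).

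Stat2 and Irf9 encode partners in the ISRE-binding complex. Stat2 (chromosome 10, 128270559 to 128292849, plus strand) had 44.7, 52.7 and 57.0 CPM at 12Gy_48h, 10.9, 16.0 and 11.7 CPM at 12Gy_24h, and 28.3, 35.0 and 32.4 CPM at 4Gy_48h, against 14.6, 23.6 and 18.8 CPM in control. The 12Gy_48h libraries stood above those of 4Gy_48h, which stood above control, and the 12Gy_24h libraries were the lowest group but overlapped control. Stat2 rose over control by 1.45 ± 0.18 on the log2 scale at 12Gy_48h (2.73-fold, edgeR adjusted p 2.44e-05) and by 0.76 ± 0.18 at 4Gy_48h (1.69-fold, edgeR adjusted p 0.00962). Among known genes alone the 12Gy_48h value was 1.26 (adjusted p 0.000268), and the 4Gy_48h value of 0.61 did not pass (adjusted p 0.115).

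At 12Gy_24h Stat2 fell by 0.55 ± 0.20 on the log2 scale against control (edgeR adjusted p 0.0337). Among known genes alone the fall was larger, at -0.79 (adjusted p 0.0138). The call did not survive leaving out 12Gy_24h replicate 1 (adjusted p 0.150) or 3 (0.213), 12Gy_48h replicate 2 (0.0793), or control replicate 2 (0.284) or 3 (0.107). It was also lost with no filter (0.108), with RLE scaling (0.0514), with only the 2 groups in the fit (0.0750) and with DESeq2 (0.119).

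Irf9 (chromosome 14, 55603571 to 55610030, plus strand) had 37.4, 37.7 and 35.3 CPM at 12Gy_48h, 17.8, 22.9 and 27.4 CPM at 12Gy_24h, and 36.6, 28.4 and 41.5 CPM at 4Gy_48h, against 21.5, 28.7 and 23.3 CPM in control. The 12Gy_48h libraries lay close together above control, 4Gy_48h replicate 2 lay inside the control range, and the 24 h libraries overlapped control. Irf9 rose over control by 0.59 ± 0.18 on the log2 scale at 12Gy_48h (edgeR adjusted p 0.0166), a call lost among known genes alone (0.40, adjusted p 0.136) and without control replicate 1 (0.51, adjusted p 0.0543). At 4Gy_48h it rose by 0.54 ± 0.18 (edgeR adjusted p 0.0446). That call was lost among known genes alone (0.39, adjusted p 0.307), with RLE scaling (0.0599), with only the 2 groups in the fit (0.0633), with DESeq2 (0.0811), and with the replicate number as a block (0.0601). It was also lost without 4Gy_48h replicate 1 (0.110) or 3 (0.137), control replicate 1 (0.110) or 3 (0.0977), or 12Gy_48h replicate 1 (0.0542). At 12Gy_24h the value was -0.11 ± 0.18 (edgeR adjusted p 0.651).

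Irf9 shares exon sequence on the same strand with Rnf31, which encodes part of the linear ubiquitin ligase, and how the authors' counting split such reads is not given, so the Irf9 counts are uncertain. Rnf31 itself was higher than control by 0.90 at 12Gy_48h (edgeR adjusted p 0.00549), 0.71 at 12Gy_24h (0.0157) and 0.81 at 4Gy_48h (0.0196) on the log2 scale. It did not pass between 12Gy_48h and 12Gy_24h (0.19, edgeR adjusted p 0.536), where Irf9 did. The part of Rnf31 reads in the Irf9 values was not tested.

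Among the regulatory factors, Irf7 (chromosome 7, 141262706 to 141266481, minus strand), the factor known for driving interferon-alpha genes, had the largest differences. It had 249, 256 and 306 CPM at 12Gy_48h, 38.5, 40.2 and 56.0 CPM at 12Gy_24h, and 257, 149 and 220 CPM at 4Gy_48h, against 79.7, 90.7 and 56.8 CPM in control. The groups taken at 48 h overlapped each other and stood above all control libraries, and all 3 of the 24 h libraries stood below every control library, by a narrow margin at the nearest pair (56.0 CPM at 12Gy_24h and 56.8 CPM in control). Irf7 rose over control by 1.83 ± 0.20 on the log2 scale at 12Gy_48h (3.56-fold, edgeR adjusted p 8.35e-06) and by 1.46 ± 0.20 at 4Gy_48h (2.75-fold, edgeR adjusted p 0.000198). Both calls held under all 19 alternatives, with values of 1.65 to 2.02 and 1.29 to 1.66.

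At 12Gy_24h Irf7 fell by 0.76 ± 0.21 on the log2 scale against control, to 0.592 of the control level (edgeR adjusted p 0.00648), and by 0.99 among known genes alone (adjusted p 0.00356). The call was lost without 12Gy_24h replicate 2 (-0.57, adjusted p 0.0631) and without control replicate 2 (-0.53, adjusted p 0.0606). Irf7 overlaps exons of Phrf1 on the opposite strand, and the strand of counting is not given, so reads of the pair cannot be told apart with certainty. Phrf1 did not pass in any comparison with control (12Gy_48h log2 fold change 0.20, edgeR adjusted p 0.384; 12Gy_24h -0.30, 0.186; 4Gy_48h 0.00, 0.999).

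Irf1 (chromosome 11, 53770014 to 53778374, plus strand), known as a target of interferon gamma, had 14.9, 19.9 and 18.03 CPM at 12Gy_48h, 10.4, 10.2 and 8.75 CPM at 12Gy_24h, and 13.5, 11.8 and 10.8 CPM at 4Gy_48h, against 7.74, 12.6 and 8.57 CPM in control. The 12Gy_48h group stood apart from all 3 others, and the 4Gy_48h and 24 h groups both overlapped control. Irf1 rose over control by 0.88 ± 0.20 on the log2 scale at 12Gy_48h (edgeR adjusted p 0.00362), and by 0.69 among known genes alone (adjusted p 0.0271). The differences at 12Gy_24h (0.03 ± 0.22, edgeR adjusted p 0.921) and 4Gy_48h (0.33 ± 0.21, edgeR adjusted p 0.307) did not pass.

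Irf3 (chromosome 7, 44997648 to 45002848, plus strand) had another order of groups. It had 27.2, 24.5 and 24.8 CPM at 12Gy_48h, 39.5, 35.5 and 34.4 CPM at 12Gy_24h, and 24.9, 31.1 and 21.9 CPM at 4Gy_48h, against 24.5, 23.1 and 25.2 CPM in control. The 24 h libraries stood above those of every other group, and the others overlapped each other. Irf3 rose over control at 12Gy_24h by 0.59 ± 0.14 on the log2 scale (1.51-fold, edgeR adjusted p 0.00280), a call lost among known genes alone (0.36, adjusted p 0.0850). At 12Gy_48h (0.07 ± 0.15, edgeR adjusted p 0.738) and 4Gy_48h (0.10 ± 0.15, edgeR adjusted p 0.693) it did not pass. Irf3 overlaps exons of Bcl2l12 on the opposite strand, which did not pass in any comparison (its 12Gy_24h value was -0.30, edgeR adjusted p 0.345).

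**Figure D2:**
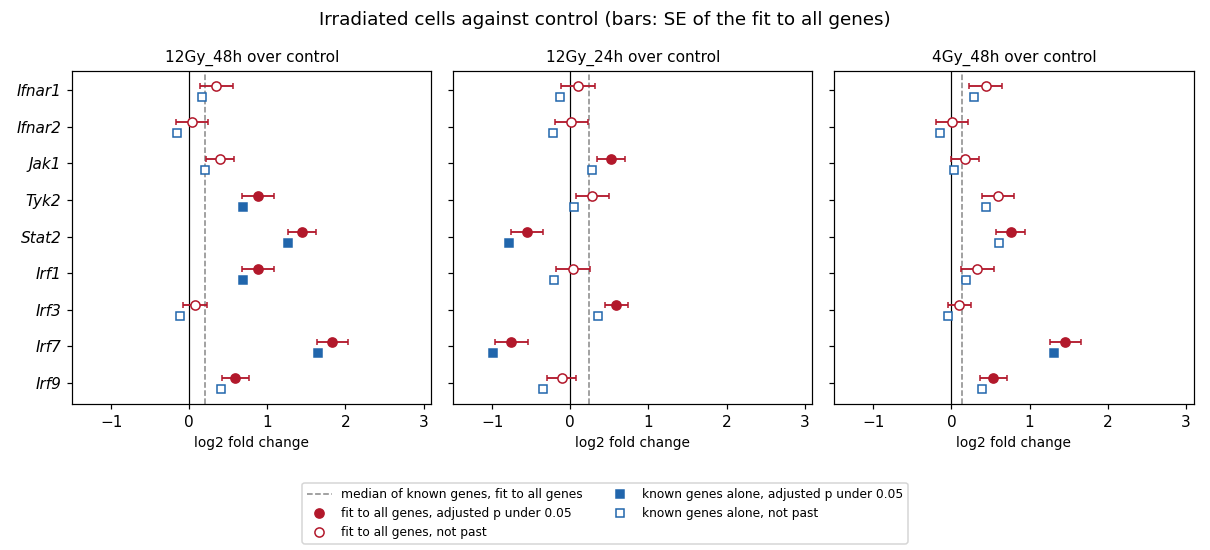
Log2 fold change over control of the 9 genes in each irradiated group. Circles with bars are the fit to all genes with its SE, squares the fit to known genes alone, filled symbols passed at an adjusted p under 0.05, and the dashed line is the median known gene in the fit to all genes. Irf7 and Stat2 lie to the right of 0 at 48 h after either dose and to the left at 24 h.

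Counted over the 9 genes, 5 were called higher and 0 lower at 12Gy_48h than in control (Tyk2, Stat2, Irf1, Irf7, Irf9), where 12.9% of all tested genes were called higher and 20.2% lower. Of the tested known genes in the same fit 18.2% were called higher and 3.74% lower. Of known genes fitted alone 6.76% were called higher and 8.04% lower, with 4 of the 9 genes among the higher. The values of the same 5 genes did not overlap control, which held upwards for 20.5% of all tested genes. That share counts unannotated loci too, whose median log2 fold change was -0.91 in this comparison. Shares without overlap were not worked out over known genes, here or in the other comparisons. The median log2 fold change of the 9 was 0.59, beside 0.006 over all tested genes and 0.195 over known genes.

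At 12Gy_24h, 2 of the 9 were called higher (Jak1, Irf3) and 2 lower (Stat2, Irf7) than control. Of all tested genes 18.5% were called higher and 29.4% lower, and of known genes in that fit 26.5% higher and 3.99% lower, so the 2 rises are no larger a share than that of known genes. Fitted with known genes alone, 0 of the 9 were called higher and the same 2 lower, beside backgrounds of 9.15% and 7.91%. Without an adjustment, 4 of the 9 had p under 0.05 in the fit to all genes. The values of Irf3 and Irf7 did not overlap control, where 54.5% of all tested genes did not. The median of the 9 was 0.03 on the log2 scale, beside 0.006 over all tested genes and 0.233 over known genes. In the fit to known genes alone the median of the 9 was -0.20.

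At 4Gy_48h, 3 of the 9 were called higher than control (Stat2, Irf7, Irf9) and 0 lower, beside 4.53% higher and 13% lower over all tested genes and 6.21% and 0.877% over known genes. Fitted with known genes alone, Irf7 was the 1 gene of the 9 to pass, beside 0.754% of known genes called higher and 0.57% lower. The values of 4 genes did not overlap control, Ifnar1, Tyk2, Stat2 and Irf7, each upwards, as for 13.1% of tested genes. The median log2 fold change of the 9 was 0.44, beside 0.01 over all tested genes and 0.137 over known genes. The 3 comparisons share the control libraries, so their calls are not independent of each other.

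The comparison of 48 h with 24 h after 12 Gy does not use the control means, although the control libraries enter the estimate of spread. Irf7 was higher at 48 h by 2.59 ± 0.21 on the log2 scale (6.02-fold, edgeR adjusted p 8.33e-07) and Stat2 by 2.00 ± 0.19 (4.00-fold, edgeR adjusted p 2.38e-06). Irf1 was higher by 0.85 ± 0.21 (edgeR adjusted p 0.00558) and Irf9 by 0.70 ± 0.18 (edgeR adjusted p 0.00740). These 4 calls held under all 19 alternatives. Irf3 was lower at 48 h by 0.52 ± 0.14 (log2 fold change -0.52, edgeR adjusted p 0.0124), and without 12Gy_24h replicate 1 the adjusted p was 0.05002.

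Tyk2 was higher at 48 h by 0.60 ± 0.20 on the log2 scale (edgeR adjusted p 0.0313). Its call was lost without 12Gy_24h replicate 1 (0.112), 2 (0.0780) or 3 (0.127), 12Gy_48h replicate 1 (0.0911) or 2 (0.155), or control replicate 3 (0.0536), and with no filter (0.0620), RLE scaling (0.0591) or DESeq2 (0.146). In all, 5 of the 9 were called higher and 1 lower at 48 h, beside 20.6% higher and 11.4% lower over all tested genes and 9.97% and 15.6% over known genes. Fitted with known genes alone the counts were 5 and 1 as well, beside 11.1% and 12.6%. The values of these 6 genes did not overlap between the times, as for 47.6% of all tested genes in either direction. Ifnar1 (0.25 ± 0.21), Ifnar2 (0.02 ± 0.21) and Jak1 (-0.12 ± 0.18) did not pass (edgeR adjusted p 0.405, 0.954 and 0.634). Phrf1, the neighbour of Irf7, was also higher at 48 h, by 0.50 (edgeR adjusted p 0.0404), with 19.9 ± 1.89 CPM at 12Gy_48h and 14.1 ± 1.95 CPM at 12Gy_24h (SD, n = 3 each); its part in the Irf7 value was not tested.

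**Figure D3:**
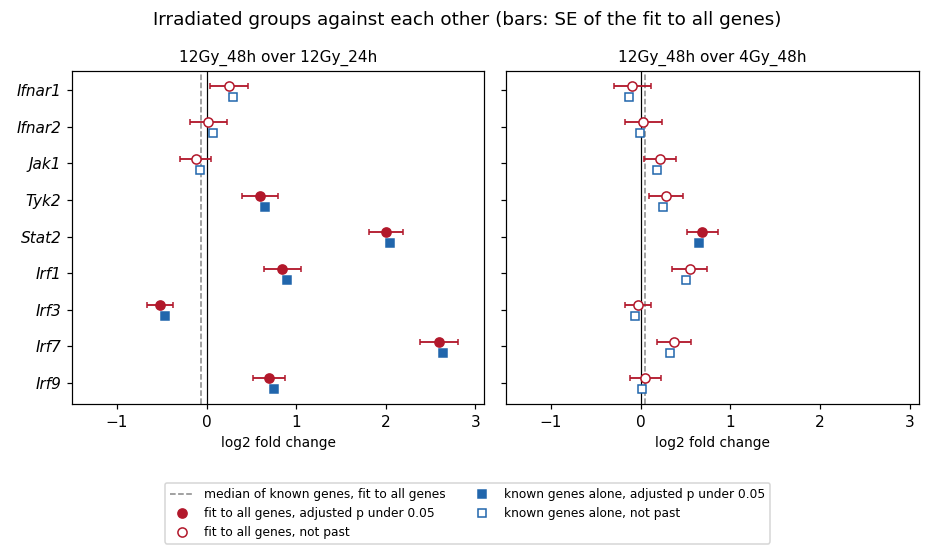
Log2 fold change of the 9 genes between irradiated groups, at left 12Gy_48h over 12Gy_24h and at right 12Gy_48h over 4Gy_48h. Circles with bars are the fit to all genes with its SE, squares the fit to known genes alone, filled symbols passed at an adjusted p under 0.05, and the dashed line is the median known gene in the fit to all genes. Between the times Irf7 (2.59) and Stat2 (2.00) lie farthest from 0, and between the doses Stat2 (0.69) alone is filled.

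Between the doses at 48 h, Stat2 was the only one of the 9 genes to pass, higher after 12 Gy than after 4 Gy by 0.69 ± 0.17 on the log2 scale (1.61-fold, edgeR adjusted p 0.0322). That is 1 of 9, beside 2.19% called higher and 2.49% lower over all tested genes, and 2.79% and 1.55% over known genes. Among known genes fitted alone it was 1 of 9 as well, beside 2.91% and 3.22%. The call was kept by every alternative that used all libraries of both groups, and lost without each of the 6 libraries of the 2 groups (12Gy_48h replicate 1, 0.0517; 2, 0.129; 3, 0.0972; 4Gy_48h replicate 1, 0.102; 2, 0.05015; 3, 0.0906), with log2 fold changes of 0.61 to 0.78 throughout. Irf1 (0.55 ± 0.20, 95% interval 0.13 to 0.97, edgeR adjusted p 0.124) and Irf7 (0.37 ± 0.19, interval -0.03 to 0.78, edgeR adjusted p 0.275) did not pass. Irf9 was close to equal in the doses, with 36.8 ± 1.32 CPM after 12 Gy and 35.5 ± 6.65 CPM after 4 Gy (SD, n = 3 each) and an interval of -0.31 to 0.42 on the log2 scale. The values of Jak1, Stat2 and Irf1 did not overlap between the doses, each higher after 12 Gy, as for 14.1% of tested genes. In these bulk libraries a change in the share of cells expressing a gene and a change in RNA per cell cannot be told apart.

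The 9 genes differed among themselves in how they were ordered over the groups. Irf7, Stat2 and Irf9 had the order 12Gy_48h, 4Gy_48h, control, 12Gy_24h from high to low, with only Irf7 apart from its neighbour at the low end. Tyk2 and Irf1 shared the order 12Gy_48h, 4Gy_48h, 12Gy_24h, control, in which the last 2 groups overlapped. Jak1 and Irf3 were highest at 12Gy_24h. Group means spanned 6.02-fold for Irf7, 4.01-fold for Stat2 and between 1.03-fold and 1.83-fold for the other 7 genes.

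Likeness of pattern was measured as the root mean square difference of log2 CPM, centred on each gene's own mean, over the 12 libraries. Within the 9 genes the closest pair was Irf1 and Tyk2 (0.22), and Irf7 was nearest to Stat2 (0.49). Among 8366 known genes with a mean of at least 5 CPM, those nearest to Irf7 were Oasl2 (0.23), Usp18 (0.27) and Spats2l (0.27), where the median gene lay at 1.12. Nearest to Stat2 were Rnf213 (0.23), Oas2 (0.24) and Ifi35 (0.25), beside a median of 0.82. For the other genes that passed in some comparison the nearest were Slc35e1, Rab13 and Fam120b (Tyk2), Mapk8ip3, Rab13 and Tbrg1 (Irf1), Gna12, Etnk1 and Shisa5 (Irf9), Urm1, Ing5 and Arl6 (Irf3), and Cnpy4, Fndc3a and Chordc1 (Jak1). Those neighbours lay at 0.079 to 0.18. The median gene lay closer than for Irf7 and Stat2, at 0.45 (Tyk2), 0.46 (Irf1), 0.45 (Irf9), 0.32 (Irf3) and 0.36 (Jak1). The libraries share depth and scaling, so these distances are a description.

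The ligands were nearly absent from the libraries. Of 21 interferon genes listed, 2 had any read and none passed the filter. Ifnb1, the interferon beta gene, had 7 reads over the 12Gy_48h libraries, 5 over 12Gy_24h, 5 over 4Gy_48h and 1 over control, and Ifnab had 1 read at 12Gy_48h. At 0 reads the libraries allow a level of up to 0.621 to 0.83 CPM (3 counts per library, counting error only). No ligand gene entered the main test, so no difference in ligand RNA was tested there. Ifnlr1, the specific chain of the type III receptor, had 0 reads in every library, and of the other receptor chains Ifngr1, Ifngr2 and Il10rb were tested and none passed in any comparison.

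Of the 11 tested brakes on the pathway, 3 were higher than control at 12Gy_48h, 1 was lower at 12Gy_24h and 2 were higher at 4Gy_48h. Over all known genes in the same fit, 18.2% were called higher at 12Gy_48h, 3.99% lower at 12Gy_24h and 6.21% higher at 4Gy_48h. Among known genes alone, 2 brakes were higher and 2 lower at 12Gy_48h, 2 were lower at 12Gy_24h and 1 was higher at 4Gy_48h. That fit called 6.76% of known genes higher and 8.04% lower at 12Gy_48h, 7.91% lower at 12Gy_24h and 0.754% higher at 4Gy_48h. The lower genes that appeared there were Socs2 (-0.74, edgeR adjusted p 0.0477) and Ptpn2 (-0.42, 0.0386) at 12Gy_48h, and Ptpn2 at 12Gy_24h (-0.48, 0.0196). Usp18, which removes ISG15 from proteins and blocks signalling at IFNAR2, averaged 171 ± 26.3 CPM at 12Gy_48h, 34.1 ± 5.45 CPM at 12Gy_24h, 172 ± 30.0 CPM at 4Gy_48h and 75.3 ± 17.9 CPM in control (SD, n = 3 each). It rose by 1.18 at 12Gy_48h (edgeR adjusted p 0.000122) and 1.19 at 4Gy_48h (0.000306), and fell by 1.15 at 12Gy_24h (9.998e-05), on the log2 scale. Socs3, an inhibitor of JAK kinases, rose by 0.99 at 12Gy_48h (edgeR adjusted p 0.00589) and 0.78 at 4Gy_48h (0.0418), the second of which was lost among known genes alone (0.222). Pias3 rose at 12Gy_48h (0.67, edgeR adjusted p 0.0358; 0.157 among known genes alone). Between 48 h and 24 h after 12 Gy, Usp18 (2.33) and Socs3 (0.93) were higher and Socs2 was lower (-1.03; edgeR adjusted p 8.33e-07, 0.00995 and 0.00381). Over all known genes in the same fit, 9.97% were called higher and 15.6% lower between the times.

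Of the 13 tested kinases and adaptors that act upstream of IRF3 and IRF7, 4 were higher than control at 12Gy_48h, 5 were higher at 12Gy_24h and 0 passed at 4Gy_48h. None was called lower in these 3 comparisons. Over all known genes in the same fit, 18.2% were called higher at 12Gy_48h and 26.5% at 12Gy_24h. Known genes alone left 1, 2 and 0, against a share of 6.76% of known genes called higher at 12Gy_48h and 9.15% at 12Gy_24h. At 12Gy_24h the higher genes included Irak4 (0.82, edgeR adjusted p 0.00117), Mavs, the mitochondrial adaptor of RNA sensors (0.71, 0.00520), and Tbk1, the kinase of IRF3 (0.56, 0.0146). Irak4 kept its call among known genes alone (edgeR adjusted p 0.0277), and Mavs (0.0812) and Tbk1 (0.221) lost theirs. At 12Gy_48h they were Traf6 (0.98, edgeR adjusted p 0.00915), Tbkbp1 (0.68, 0.0156), Ticam1 (0.99, 0.0320) and Traf3 (0.87, 0.0478). Traf6 kept its call among known genes alone (edgeR adjusted p 0.0466), and Tbkbp1 (0.102), Ticam1 (0.106) and Traf3 (0.158) lost theirs. Traf6 was also higher after 12 Gy than after 4 Gy at 48 h (1.24, edgeR adjusted p 0.0183).

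Of 6 further genes tested, 3 were IRF family members (Irf2, Irf5 and Irf8) and 3 encode proteins that bind IRF2 or resemble those that do (Irf2bp1, Irf2bp2 and Irf2bpl). Of these 6, 2 were higher than control at 12Gy_48h, 2 at 12Gy_24h and 1 at 4Gy_48h, beside 18.2%, 26.5% and 6.21% of known genes in the same fit. Known genes alone left 1, 1 and 0 higher, and Irf2 was then lower at 12Gy_24h (-0.76, edgeR adjusted p 0.0274). The shares of known genes called higher in that fit were 6.76%, 9.15% and 0.754%, and 7.91% were called lower at 12Gy_24h. Irf5 rose over control at 12Gy_48h (1.38, edgeR adjusted p 0.00352), with 4.92 ± 0.970 CPM at 12Gy_48h and 1.87 ± 0.0711 CPM in control (SD, n = 3 each). Irf8 rose at 12Gy_24h (0.92, edgeR adjusted p 0.0244; 0.136 among known genes alone). Irf2bp2, a corepressor that binds IRF2, rose in all 3 irradiated groups, by 0.69 at 12Gy_48h, by 0.99 at 12Gy_24h and by 0.70 at 4Gy_48h (edgeR adjusted p 0.0188, 0.000791 and 0.0295), of which only the 24 h value passed among known genes alone (0.0149). Of 6 other JAK and STAT genes tested, 1 was called higher than control in each group taken at 48 h, 0 passed at 12Gy_24h and 0 were called lower.

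Of 45 listed interferon-stimulated target genes, a list drawn up with earlier results of these libraries known, 42 were tested. Of those 42, 41 were higher than control at 12Gy_48h (median log2 fold change 1.38) and 36 at 4Gy_48h (median 1.00), with 0 lower in either. Over all known genes in the same fit, 18.2% were called higher at 12Gy_48h and 6.21% at 4Gy_48h, and 3.74% and 0.877% lower. At 12Gy_24h, 2 were higher and 13 lower (median -0.28), beside 26.5% higher and 3.99% lower over known genes. Zbp1, a sensor of Z-form nucleic acid, averaged 67.9 ± 10.00 CPM at 12Gy_48h, 5.31 ± 1.54 CPM at 12Gy_24h, 36.1 ± 9.86 CPM at 4Gy_48h and 8.37 ± 1.68 CPM in control (SD, n = 3 each). It rose by 3.01 at 12Gy_48h (edgeR adjusted p 7.29e-07) and 2.09 at 4Gy_48h (4.55e-05) and did not pass at 12Gy_24h (-0.67, 0.0741). Fitted with known genes alone, the counts were 39 higher and 1 lower at 12Gy_48h, 1 higher and 19 lower at 12Gy_24h, and 22 higher and 0 lower at 4Gy_48h. The shares over all known genes in that fit, higher and lower, were 6.76% and 8.04%, 9.15% and 7.91%, and 0.754% and 0.57% in that order.

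Rsad2, which encodes the antiviral protein viperin, had the smallest adjusted p of the list at 12Gy_48h (3.59, edgeR adjusted p 2.86e-08), ahead of Ifit3 (3.92, edgeR adjusted p 2.87e-07). Rsad2 was also 1 of the 2 higher at 12Gy_24h (0.62, edgeR adjusted p 0.0472), a call lost among known genes alone (0.39, adjusted p 0.314). Eif2ak2, the kinase PKR, was the other (0.75, edgeR adjusted p 0.00126) and kept its call there (adjusted p 0.0438). Among those lower at 12Gy_24h were Ifi44 (-1.12, edgeR adjusted p 0.000126), Oas1g (-1.11, 0.000143) and Dhx58 (-1.45, 0.000359). Ifi27 was the gene of the list that did not pass at 12Gy_48h (-0.23, edgeR adjusted p 0.172). Between 12 and 4 Gy at 48 h, 11 of the 42 were higher and 0 lower (median 0.34), beside 1 of the 9 signalling genes. Over all known genes, 2.79% were called higher and 1.55% lower there. Between 48 h and 24 h after 12 Gy, 39 of the 42 were higher and 0 lower (median 1.97), beside 9.97% and 15.6% of known genes. The ISRE letters occurred in the promoters of 18 of the 34 listed target genes with a RefSeq window (52.9%), and in 1 of the 9 signalling genes. Counted per gene over all genes with a RefSeq window, the share was 3.99%. Summed CPM of the 13 immune markers ran from 31.7 to 36.2 at 12Gy_48h, 24.0 to 24.9 at 12Gy_24h, 23.8 to 28.8 at 4Gy_48h and 22.4 to 28.6 in control, mostly from Cd14 and Lyz2. Summed CPM of the 9 mesenchymal markers ran from 1473 to 2010, 2277 to 2723, 1241 to 1724 and 691 to 1119 in the same order of groups. The part of either in the results above was not tested.

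**Figure D4:**
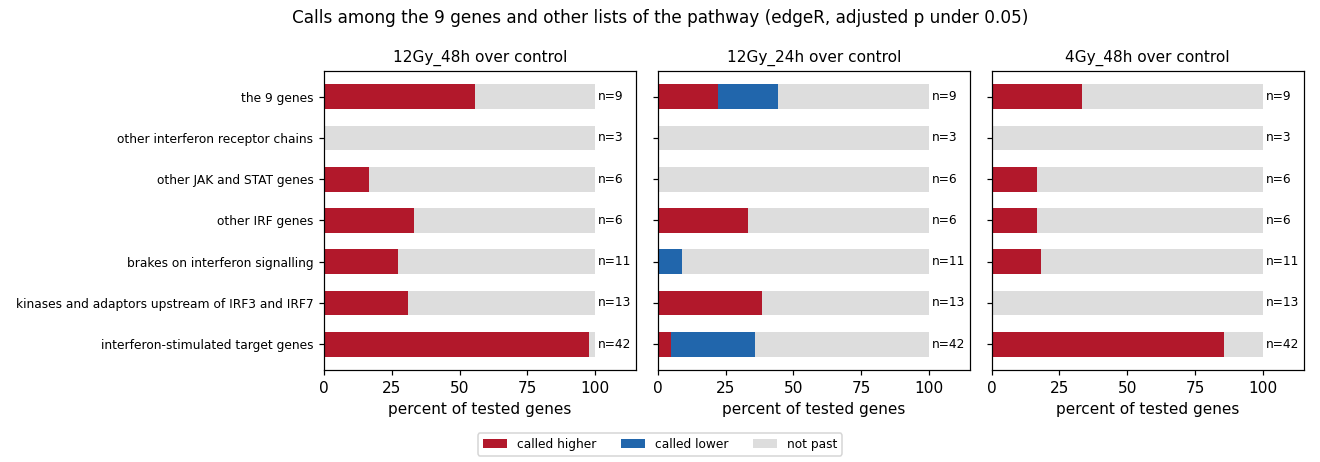
Percent of the tested genes in each list called higher (red), called lower (blue) or not past the threshold (grey) against control, for 12Gy_48h, 12Gy_24h and 4Gy_48h, with n the number of tested genes. At 12Gy_48h, 5 of the 9 signalling genes and 41 of the 42 target genes are red, and at 12Gy_24h 13 of the target genes are blue. Over all known genes in the same fit, 18.2% were called higher at 12Gy_48h and 3.99% lower at 12Gy_24h.

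In the authors' deposited table, which calls a gene at an adjusted p under 0.01 and a fold of at least 1.5, Tyk2, Stat2 and Irf7 were up at 12Gy_48h against control, Irf3 was up and Irf7 down at 12Gy_24h, and Irf7 was up at 4Gy_48h. For 48 h against 24 h after 12 Gy the authors' deposited table had Stat2 and Irf7 up and Irf3 down, and between the doses it called none of the 9. Its log2 fold changes for Irf7 were 1.86 at 12Gy_48h, -0.66 at 12Gy_24h and 1.45 at 4Gy_48h in the authors' deposited table. The stricter threshold left out Irf1 (0.0104) and Irf9 (0.0129) at 12Gy_48h, whose adjusted p in the authors' deposited table lay just over 0.01.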

How the data were processed

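The 12 libraries fell into 4 groups of 3, with groups and replicate numbers taken from the labels. Per the submitters' processing notes, cutadapt 1.9 and FastQC were used. Sources used here do not give the platform, aligner, genome build, annotation or strand of counting. The deposited table holds the authors' read counts per gene, as whole numbers. It also holds CPM, each count divided by its library total by the authors (recomputed here to within 4.78e-06), and other values from DESeq2 comparisons by the authors, used here only where named. Of 33636 lines, 11 were spilled text from 1 long annotation cell and were left out.

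The main test was the quasi-likelihood F test of edgeR 4.0.16 (R 4.3.3) on the deposited counts, after filterByExpr and TMM scaling, with 1 mean per group and all 12 libraries in the fit. A gene passed where its two-sided p, adjusted by Benjamini and Hochberg's method over the 15086 tested genes (9809 known, 4898 new loci), was under 0.05. SE came from the log2 fold change and its F statistic, and the biological coefficient of variation was 0.144. The test was checked on simulated data for 12Gy_48h against control (5 draws, 15086 genes, 200 changed). There it found 12.4% of 1.5-fold, 52.4% of 2-fold and 89.7% of 4-fold changes and made 3 to 12 false calls. The data had many more calls in that comparison, 1945 higher and 3050 lower, and the adjusted p depends on how many genes change. The simulated shares therefore do not give the share of real changes found. In all, 5 comparisons were made. The alternatives tried were fitting without a filter, requiring a mean of 5 CPM or more in a group, RLE scaling, known genes alone (9816 tested), the replicate number as a block, fits to the 2 groups compared, DESeq2 1.42.0, and leaving out each library. Gene bounds come from GENCODE's annotation of GRCm38, joined by Ensembl identifier (22022 of 22036 known genes).

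The genes and lists were chosen with earlier results of these data known. Each of the 9 genes was named in every comparison, with up to 4 called genes of each list by adjusted p and the 3 known genes nearest in pattern to each of the 9 that passed somewhere. Overlapping genes, marker genes, Rsad2 at 12Gy_24h and Ifi27 were named after their values were seen. Not every gene that this rule picks is reported here.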

Additional observations from a re-analysis of the deposited data

Results flagged for a closer look

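By edgeR's test of 12Gy_48h over 12Gy_24h, levels after 12 Gy differed between the times for 6 of the 9 genes. Without unirradiated cells at 24 h and 48 h, time after irradiation and time in culture cannot be told apart there. Log2 fold changes were 2.59 for Irf7, 2.00 for Stat2, 0.85 for Irf1, 0.70 for Irf9, 0.60 for Tyk2 and -0.52 for Irf3. Their edgeR adjusted p were 8.33e-07, 2.38e-06, 0.00558, 0.00740, 0.0313 and 0.0124 in that order. Irf7 and Stat2 were higher than control at 48 h and lower at 24 h, whereas Irf3 was higher at 24 h. Of 19 alternatives, the fall at 24 h was called in 10 for Stat2 and 17 for Irf7, and the Irf3 rise in 18. The Tyk2 difference between the times lost its call without any 1 of 6 libraries, and the Irf3 difference without 12Gy_24h replicate 1 (adjusted p 0.05002).

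Between doses at 48 h, the effect on Stat2 differed by 0.69 on the log2 scale, larger after 12 Gy than after 4 Gy (edgeR adjusted p 0.0322). It lost its call without each of the 6 libraries of those groups (adjusted p 0.05015 to 0.129).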

How the results depend on the processing

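Of the 19 calls among the 9 genes, 9 held under all 19 alternatives and 10 were lost under some. Of the 26 results not called, 24 were called under none, the exceptions being Jak1 at 12Gy_48h and Tyk2 at 4Gy_48h against control. No called result changed sign. Against control, known genes alone left 2 calls among the 9 at 12Gy_24h and 1 at 4Gy_48h, and 664 known genes rose and 789 fell at 12Gy_48h, 898 rose and 776 fell at 12Gy_24h, and 74 rose and 56 fell at 4Gy_48h. Between the times, 1090 were higher at 48 h. Fewer genes were tested there, and the new loci, mostly lower in irradiated cells, no longer set the scaling. No filter gave 4342 genes higher at 12Gy_24h, 1185 at 4Gy_48h, and 537 higher and 576 lower at 12 Gy than at 4 Gy. Only the 2 groups compared gave 2 calls among the 9 at 12Gy_24h and 499 genes higher at 12 Gy than at 4 Gy. DESeq2 gave 1269 genes higher at 12Gy_48h. The cause of these last differences was not tested.

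Signs that turned belonged to uncalled results. Known genes alone gave Ifnar2 -0.15 and Irf3 -0.11 at 12Gy_48h, Ifnar1 -0.14, Ifnar2 -0.22 and Irf1 -0.20 at 12Gy_24h, Ifnar2 -0.14 and Irf3 -0.049 at 4Gy_48h, and Ifnar2 -0.011 between doses. Ifnar2 was -0.021 at 4Gy_48h with RLE scaling, and between times -0.062 with no filter, -0.055 with RLE, -0.010 with only the 2 groups and -0.081 with DESeq2. Irf9 at 12Gy_24h was 0.043 with no filter.

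Leaving out each library gave 2 to 4 calls among the 9 at 12Gy_24h and 0 to 1 between doses. Over all genes it gave 304 to 1011 higher and 1220 to 2159 lower at 4Gy_48h, 2066 to 3331 higher at 48 h than at 24 h, and 41 to 469 higher and 36 to 554 lower at 12 Gy than at 4 Gy. Values with a turned sign ran at 12Gy_48h from -0.068 to 0.35 (Ifnar2); at 12Gy_24h from -0.13 to 0.34 (Ifnar2), -0.10 to 0.34 (Irf1) and -0.19 to 0.094 (Irf9); at 4Gy_48h from -0.097 to 0.32 (Ifnar2), -0.021 to 0.42 (Jak1) and -0.042 to 0.22 (Irf3); between times from -0.23 to 0.17 (Ifnar2); and between doses from -0.21 to 0.10 (Ifnar1), -0.040 to 0.14 (Ifnar2), -0.14 to 0.13 (Irf3) and -0.081 to 0.18 (Irf9).

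The replicate block changed 1 call, Irf9 at 4Gy_48h (0.53, adjusted p 0.0601), leaving 2 of the 9 called there. Libraries sharing a number did not deviate together (correlations of -0.11 to 0.13 over 18 pairs, against -0.13 to 0.17 over 36 pairs of unlike number), so the numbers were not taken to pair samples. No ligand gene passed the filter, so the main test did not cover differences in ligand RNA.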
